A study of Rattus norvegicus with 6 samples.

Results

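Elastic fibre assembly genes were followed in the thoracic aorta of 2 inbred rat strains, a set of 10 genes for elastin, the microfibrils that surround it, the linking proteins that place it on them and the enzymes that cross-link it. Genes were taken from a fixed list, and a gene was measured where the array annotation gives a probe set (a group of short probes for 1 transcript) to that gene alone. By this rule 8 of the 10 genes had a probe set, 1 each, among 18166 genes named on the array. The measured genes were Eln, Fbn1, Mfap5, Fbln1, Efemp2, Emilin1, Lox and Loxl1. Fbln5 appeared only on 2 probe sets annotated to Trip11 as well, so no value is given for it, and Fbn2 was not analysed here.

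RNA came from untreated SHR (the spontaneously hypertensive rat) and untreated WKY (the Wistar-Kyoto rat, its usual normotensive comparison strain), all aged 24 weeks, and was hybridised to Affymetrix Rat Gene 2.0 ST arrays, 3 for SHR and 3 for WKY. Aortae had been cleared of fat and connective tissue before freezing. SHR and WKY are separate strains, so the effect of blood pressure and that of other strain differences cannot be told apart. Nothing in the labels says that each array stands for a separate animal, so p-values measure the spread between these arrays, which may be technical. Levels below are log2 values from the authors' RMA normalization, in which 1 unit is a doubling. Levels of different genes are not compared, because probe sets differ in brightness. WKY replicate 3 and SHR replicate 1 stood apart from the rest: their fitted array weights were 0.22 and 0.69, against 1.08 to 2.05 on the other arrays, and WKY replicate 3 had the highest median level, 2.52 against 2.29 to 2.33.

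An elastic artery stretches with each heartbeat and recoils because its wall holds sheets of elastic fibres. Smooth muscle cells lay most of them down early in life: elastin monomers are carried on fibulins to microfibrils built of fibrillin, and lysyl oxidases then join them into a polymer that turns over very slowly. RNA levels in an adult therefore describe the current transcripts of these genes and do not measure the elastic fibre already in the wall.

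Of the 8 measured genes, 0 passed the test between SHR and WKY (limma, Benjamini-Hochberg adjusted p from 0.923 to 0.983), and 0 had an unadjusted p under 0.05. The share passing over all tested probe sets was 0.0693%, made up of 0.06% on the higher side and 0.00923% on the lower. An unadjusted p under 0.05 was found for 5.55%, of which 3.01 percentage points were higher and 2.54 lower. The median of the 8 differences was -0.094 on the log2 scale, beside a median of 0.0055 over all 15281 tested genes. In 2 of the 8 genes the SHR arrays did not overlap the WKY arrays, Efemp2 on the higher side and Eln on the lower, whereas such separation was found for 12.1% of all tested probe sets (6.48% higher and 5.61% lower). The 95% interval of the difference included 0 for all 8 genes. For 6 of them the interval lay wholly inside a change of 2-fold in either direction, whereas for Fbln1 and Mfap5 it reached beyond a 2-fold decrease. When SHR replicate 1 and WKY replicate 3 were both left out, still 0 of the 8 passed. The differences were then -1.52 for Fbln1 (limma adjusted p = 0.200) and -1.37 for Mfap5 (limma adjusted p = 0.0735), the 2 genes with the widest intervals. For the other genes they were -0.14 for Eln, -0.11 for Fbn1, 0.31 for Efemp2, 0.23 for Emilin1, -0.41 for Lox and 0.12 for Loxl1.

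**Figure D1:**
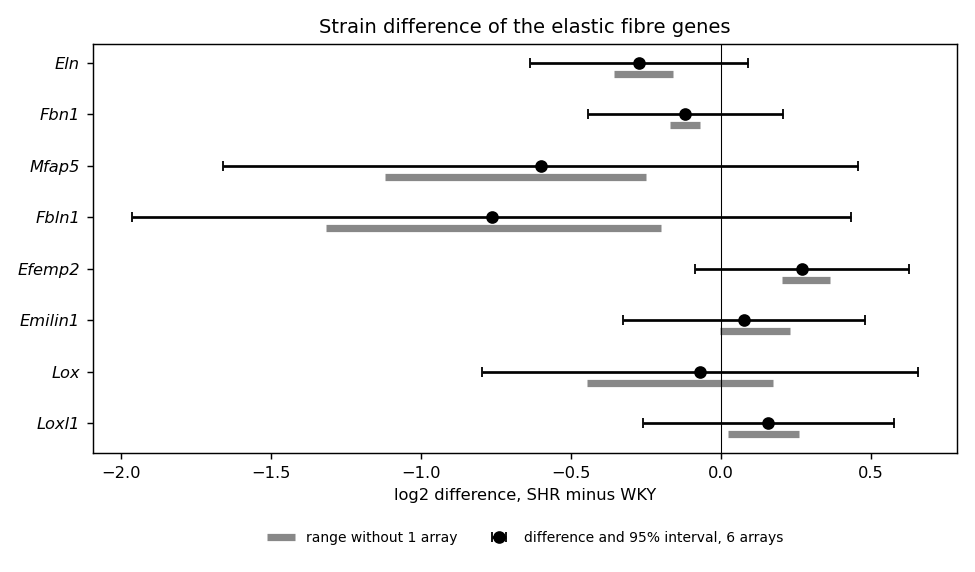
Fitted log2 difference, SHR minus WKY, of each measured elastic fibre gene (black points) with its 95% interval (black bars) and the range of the difference when 1 array at a time was left out (grey bars). The intervals of Fbln1 and Mfap5 are the widest, and every interval includes 0.

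Elastin itself, the rubber-like core of the fibre, is encoded by Eln. Its level was 9.70, 10.09 and 9.98 on SHR replicates 1 to 3, against 10.20, 10.16 and 10.24 on WKY replicates 1 to 3. Each SHR array lay below each WKY array, with SHR replicate 1 the lowest and the WKY arrays close together. Mean levels were 9.93 ± 0.20 in SHR and 10.20 ± 0.04 in WKY (SD, n = 3 each), a log2 difference of -0.27 ± 0.16 (SE; limma adjusted p = 0.923). As a ratio this is 0.828-fold, with a 95% interval from 0.644 to 1.06. Without SHR replicate 1 the difference was -0.16. Smooth muscle markers, of which 5 of 7 were measured (Myh11, Tagln, Smtn, Lmod1 and Mylk), were also lowest on SHR replicate 1. They averaged 9.36, 9.61 and 9.66 on SHR replicates 1 to 3, against 9.55, 9.70 and 9.81 on the WKY replicates. The part of these markers in the level of Eln was not tested, and in such whole-tissue samples fewer cells of a type and less RNA per cell cannot be told apart.

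**Figure D2:**
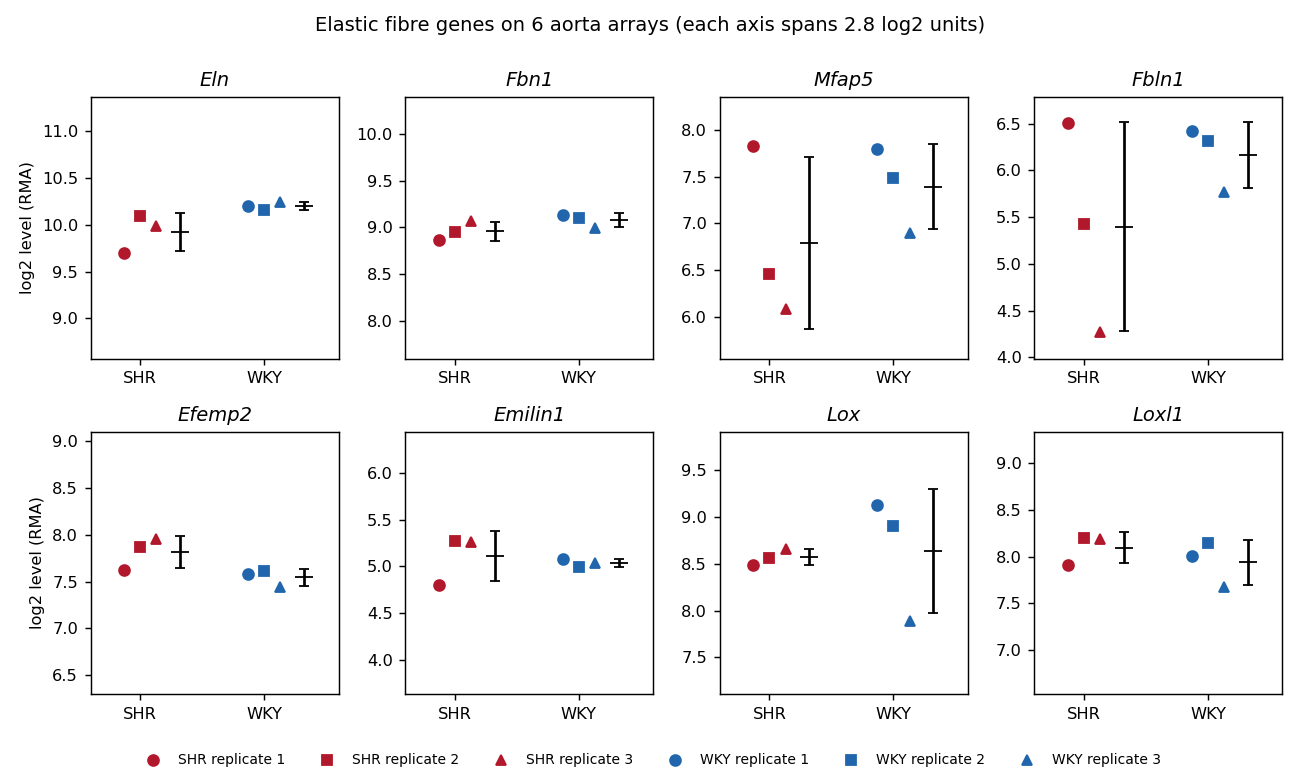
Log2 level of the 8 measured elastic fibre genes on each array, SHR in red and WKY in blue, with the mean and SD of each strain as black bars (n = 3). Every axis spans the same 2.8 log2 units, so panels can be compared for spread but not for level. Mfap5 and Fbln1 spread over 1.74 and 2.23 units among the SHR arrays, while the arrays of Eln and Efemp2 separate by strain over a much shorter range.

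Microfibrils are the scaffold on which elastin is deposited. Fbn1 encodes fibrillin-1, their main component in the adult, which is mutated in Marfan syndrome in humans. It lay at 8.86, 8.95 and 9.06 on SHR replicates 1 to 3, against 9.13, 9.10 and 8.99 on WKY replicates 1 to 3. The strains overlapped, and all 6 arrays fell within 0.27 log2 units of each other. Its difference was -0.12 ± 0.14 (SE; limma adjusted p = 0.932), and the 95% interval of the ratio ran from 0.735-fold to 1.15-fold. Fbn1 was the steadiest of the 8 genes: 94.7% of all tested genes had a larger SD within strains.

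Mfap5 encodes the microfibril-associated glycoprotein MAGP-2, which binds fibrillin. Its level was 7.83, 6.46 and 6.09 on SHR replicates 1 to 3, against 7.79, 7.49 and 6.89 on WKY replicates 1 to 3. SHR replicate 1 was as high as the highest WKY array, and the other SHR arrays were lower than every WKY array. The fitted difference was -0.60 ± 0.45 (SE; limma adjusted p = 0.923), with an interval of the ratio from 0.316-fold to 1.37-fold. Leaving out SHR replicate 1 gave -1.12, SHR replicate 3 gave -0.25 and WKY replicate 1 gave -0.40.

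Fibulins and emilin connect elastin, microfibrils and cells. Fbln1 encodes fibulin-1, which binds elastin, fibronectin and basement membrane proteins. It had the widest spread of the 8 genes, at 6.51, 5.42 and 4.27 on SHR replicates 1 to 3, against 6.42, 6.31 and 5.77 on WKY replicates 1 to 3. SHR replicate 1 was the highest of all arrays and SHR replicate 3 the lowest. The SD within SHR was 1.12, and 1.84% of tested genes had a larger SD within strains than Fbln1. The fitted difference was -0.76 ± 0.51 (SE; limma adjusted p = 0.923). It ranged from -1.32 without SHR replicate 1 to -0.20 without SHR replicate 3.

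Efemp2, the gene of fibulin-4, makes a protein that brings lysyl oxidase to elastin and without which mice fail to form elastic fibres. Its level was 7.63, 7.87 and 7.95 on SHR replicates 1 to 3, against 7.58, 7.62 and 7.44 on WKY replicates 1 to 3. All SHR arrays lay above all WKY arrays, but SHR replicate 1 only narrowly. Mean levels were 7.82 ± 0.17 in SHR and 7.55 ± 0.09 in WKY (SD, n = 3 each), a difference of 0.27 ± 0.15 (SE; limma adjusted p = 0.923), or 1.21-fold with a 95% interval from 0.943 to 1.54. Leaving out 1 array at a time gave 0.20 to 0.37.

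Emilin1, a glycoprotein at the border of elastin and microfibrils that also restrains the processing of TGF-beta, lay at 4.80, 5.27 and 5.26 on SHR replicates 1 to 3, against 5.08, 4.99 and 5.04 on WKY replicates 1 to 3. The SHR arrays fell on both sides of the WKY arrays, and the difference was 0.077 ± 0.17 (SE; limma adjusted p = 0.964). Its sign turned without SHR replicate 2, at -0.0038.

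Lysyl oxidases convert lysines of elastin and collagen into the aldehydes that form cross-links. Lox, the main enzyme of the family in the artery, lay at 8.49, 8.56 and 8.66 on SHR replicates 1 to 3, against 9.13, 8.91 and 7.89 on WKY replicates 1 to 3. The SHR arrays were close together, and the WKY arrays fell on both sides of them. Mean levels were 8.57 ± 0.09 in SHR and 8.64 ± 0.66 in WKY (SD, n = 3 each), and the difference was -0.070 ± 0.31 (SE; limma adjusted p = 0.983). WKY replicate 3, which set the WKY spread, is also the array with the lowest weight. Without it the difference of Lox was -0.45, and leaving out WKY replicate 1 instead gave 0.17. Loxl1, a relative that is needed to renew elastin in adult mice, lay at 7.91, 8.19 and 8.19 on SHR replicates 1 to 3, against 8.01, 8.14 and 7.67 on WKY replicates 1 to 3. The strains overlapped, with a difference of 0.16 ± 0.18 (SE; limma adjusted p = 0.930) that was 0.023 without WKY replicate 3 and reached 0.26 when WKY replicate 2 was left out.

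The genes did not vary together as 1 block. Taking each gene's deviations from its own mean over the 6 arrays, the root mean square difference between 2 genes ran from 0.108 to 0.915 log2 units over the 28 pairs. Efemp2 and Loxl1 were the nearest pair, at 0.108, and Fbln1 and Efemp2 the farthest. Fbln1 and Mfap5 differed by 0.253, small beside their own deviations of 0.776 and 0.663. Among 15280 other tested genes Fbln1 was the 58th nearest to Mfap5. Mfap5 was the 14810th nearest to Fbn1, whose own deviations were 0.093. The measure is not scaled for spread, so a gene of wide spread ranks far from a steady gene whatever its pattern. These 2 ranks are therefore not comparable. All of these values come from the same 6 arrays and describe them only.

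Fbln1 and Mfap5 were highest on SHR replicate 1 and WKY replicate 1 and lowest on SHR replicate 3. So were the marker means of fibroblasts, white fat, endothelium and macrophages. The remaining arrays did not all keep the same order. On WKY replicate 2 both genes lay above SHR replicate 2, whereas the macrophage mean lay below it. The 7 fibroblast markers (Pdgfra, Dcn, Lum, Dpt, Pi16, Col1a1 and Cd34), for cells that in the aorta lie mainly in the outer layer, averaged 8.82, 8.05 and 7.34 on SHR replicates 1 to 3, against 8.58, 8.46 and 8.10 on the WKY replicates. Not every marker followed the list mean. Col1a1 was highest on WKY replicate 3, at 9.58, Pi16 was highest on WKY replicate 1, at 7.53, and Lum was lowest on WKY replicate 3, at 7.98. Fbln1 and the list mean had SHR replicate 1 as the highest and SHR replicate 3 as the lowest array of all 6, and so did Mfap5. White adipocyte markers, all 7 measured, averaged 7.90, 5.86 and 4.04 on the SHR arrays, against 7.61, 6.08 and 6.22 on the WKY arrays in the same order. The 5 measured endothelial markers of 7 averaged 6.55, 4.97 and 4.21 on the SHR arrays, against 6.33, 5.76 and 5.45 on the WKY arrays. All 6 macrophage markers were measured, and their mean was 6.02, 4.46 and 3.57 on the SHR arrays, against 5.27, 4.32 and 4.44 on the WKY arrays. Brown adipocyte markers, 5 of 5 measured, ran from 2.96 to 5.03 in SHR and from 4.34 to 6.65 in WKY, and the 6 measured skeletal and cardiac muscle markers of 7 from 3.19 to 3.27 in SHR and from 3.25 to 3.91 in WKY. The part of these cell types in the levels of Fbln1 and Mfap5 was not tested. The fits with a marker covariate given next use marker means of the same 6 arrays. In them fewer cells of a type and less RNA per cell cannot be told apart.

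**Figure D3:**
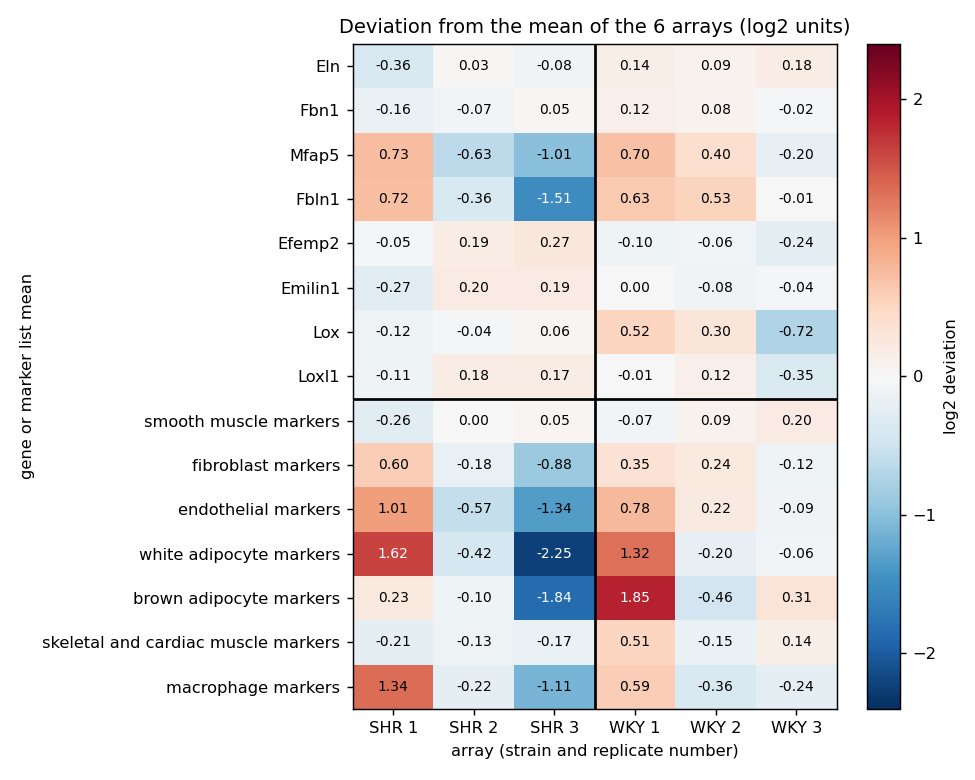
Deviation of each gene, and of the mean of each marker list, from its own mean over the 6 arrays, in log2 units, with SHR arrays on the left and WKY arrays on the right. Mfap5, Fbln1 and the fibroblast, endothelial, white adipocyte and macrophage markers share a high SHR replicate 1 and a low SHR replicate 3. Eln, Fbn1, Efemp2, Emilin1, Lox and Loxl1 do not.

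Without a covariate the differences of Fbln1 and Mfap5 were -0.76 and -0.60 (limma adjusted p = 0.923 for both). With the mean of the white adipocyte markers as a covariate, that of Fbln1 was -0.40 (limma adjusted p = 0.799). That of Mfap5 was then -0.29 (limma adjusted p = 0.826). A fit with the fibroblast mean in that place, added after the data had been seen, gave -0.30 for Fbln1 (limma adjusted p = 0.670) and -0.21 for Mfap5 (limma adjusted p = 0.779). The difference of Eln was -0.32 and -0.33 in these fits, and that of Efemp2 was 0.22 in both. Among the other genes of the family, Efemp1, which encodes fibulin-3, had the same order of SHR arrays as Fbln1. It lay at 7.03, 5.37 and 4.02 on SHR replicates 1 to 3, against 6.98, 6.39 and 5.91 on WKY replicates 1 to 3, and was chosen after its values were seen, as was Fbln2. Fbln2, which encodes fibulin-2, lay at 4.84, 3.78 and 3.40 on SHR replicates 1 to 3, against 4.54, 4.14 and 4.20 on WKY replicates 1 to 3. In neither gene did the strains separate.

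Windows from RefSeq, in assembly GRCr8, were at hand for 4 of the 8 measured genes. They run from 250 bases before the annotated start site to 50 after it. All 4 windows are shown, to be read beside the levels of these genes. That of Mfap5 is chr4:157399669-157399968 on the plus strand, that of Fbn1 chr3:133203341-133203640 on the minus strand, that of Efemp2 chr1:212211472-212211771 on the plus strand and that of Loxl1 chr8:67612175-67612474 on the minus strand. Capitals mark matches, on either strand, to 3 short motifs: the GC box GGGCGG, the CCAAT box CCAAT and the TATA box TATAAA.
Mfap5: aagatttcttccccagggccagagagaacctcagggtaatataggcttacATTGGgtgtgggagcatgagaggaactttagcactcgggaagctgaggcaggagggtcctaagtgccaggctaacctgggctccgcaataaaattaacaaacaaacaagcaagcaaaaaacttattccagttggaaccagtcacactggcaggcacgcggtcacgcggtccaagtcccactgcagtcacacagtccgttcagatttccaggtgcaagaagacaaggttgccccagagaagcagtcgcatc
Fbn1: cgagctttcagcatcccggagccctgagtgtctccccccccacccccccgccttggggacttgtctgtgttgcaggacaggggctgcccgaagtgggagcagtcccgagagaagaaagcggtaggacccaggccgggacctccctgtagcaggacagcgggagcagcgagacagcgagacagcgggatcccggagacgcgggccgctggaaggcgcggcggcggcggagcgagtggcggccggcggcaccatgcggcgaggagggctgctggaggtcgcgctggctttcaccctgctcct
Efemp2: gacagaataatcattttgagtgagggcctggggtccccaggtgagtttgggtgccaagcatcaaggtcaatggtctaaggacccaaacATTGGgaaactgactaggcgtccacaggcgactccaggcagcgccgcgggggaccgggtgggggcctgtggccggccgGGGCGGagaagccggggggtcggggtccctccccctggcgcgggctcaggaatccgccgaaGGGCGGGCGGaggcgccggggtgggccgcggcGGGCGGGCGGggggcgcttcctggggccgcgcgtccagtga
Loxl1: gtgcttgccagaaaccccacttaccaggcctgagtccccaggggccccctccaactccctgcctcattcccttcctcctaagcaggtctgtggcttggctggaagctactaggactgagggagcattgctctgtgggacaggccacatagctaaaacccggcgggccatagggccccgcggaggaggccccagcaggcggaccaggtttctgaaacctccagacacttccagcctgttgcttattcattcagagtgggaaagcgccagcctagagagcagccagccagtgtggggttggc
The Efemp2 window held 5 matches to the GC box, some of them overlapping, and the other 3 windows held 0. Mfap5 and Efemp2 had 1 match each to the CCAAT box, Fbn1 and Loxl1 had 0, and none of the 4 windows held a TATA box. G or C made up 51.7% of the bases in Mfap5, 70.7% in Fbn1, 71.0% in Efemp2 and 61.0% in Loxl1. Of 33469 windows of 300 bases in the same table, 33.1% held a GC box, 37.5% a CCAAT box and 14.2% a TATA box. These matches describe the letters and do not show that a factor binds there. In Fbn1 the 50 bases after the annotated start begin with atg, the letters of a start codon. That start may therefore be one of translation, and the Fbn1 window may not cover the start of transcription.

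The genes whose levels followed Eln most closely over the 6 arrays were Fam53b, Tnnt1 and Lbhd2, with root mean square differences of 0.038, 0.043 and 0.049 among 14815 protein-coding genes. The deviations of Eln itself had a root mean square of 0.180. Fam53b was lowest on SHR replicate 1, as Eln was, at 4.61, and lay between 4.83 and 5.05 on the other arrays. Tnnt1 and Lbhd2 lay below the median of each of the 6 arrays, and no detection call shows them to lie above background. Lox was followed most closely by Tob1, Zfp870 and Rragd, at 0.063, 0.070 and 0.085. Tob1 lay at 7.11, 7.14 and 7.19 on SHR replicates 1 to 3, against 7.60, 7.44 and 6.55 on WKY replicates 1 to 3, with the low WKY replicate 3 seen in Lox.

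A wider list held 64 other genes of the pathway, of which 58 were tested, and it includes genes already known to be higher in SHR on these arrays. After adjustment in limma 0 were higher and 0 lower, while 14 (12 on the higher side and 2 on the lower in SHR) had an unadjusted p under 0.05. That is 24.1% of the 58, beside 5.55% of all tested probe sets. The strains did not overlap in 19 of the 58 genes (16 higher and 3 lower in SHR). That is 32.8%, beside 12.1% of all tested probe sets. The median difference of the list was 0.075. Among 10 other microfibril proteins, Fbln7 (fibulin-7) had the smallest p, at 6.39, 6.13 and 6.64 on SHR replicates 1 to 3, against 6.06, 6.02 and 5.73 on WKY replicates 1 to 3. Vcan, a large proteoglycan that binds fibrillin, differed by 0.63 and Mfap4, which binds elastin and fibrillin, by -0.37, and in both the strains overlapped. Without 1 array at a time Vcan ranged from 0.25 (without WKY replicate 3) to 0.82, and Mfap4 from -0.53 to -0.24 (without SHR replicate 1).

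Some, but not all, of the latent TGF-beta binding proteins tether the growth factor to microfibrils. Ltbp2, which binds fibulin-5, lay at 8.21, 9.02 and 9.14 on SHR replicates 1 to 3, against 7.94, 8.00 and 8.02 on WKY replicates 1 to 3. The strains did not overlap, and SHR replicate 1 was the nearest to WKY. Its difference was 0.80 ± 0.25 (SE; limma adjusted p = 0.722), and it was 1.11 (limma adjusted p = 0.0490) when SHR replicate 1 and WKY replicate 3 were both left out. Those arrays have the lowest weights in these same data, and without them 115 of all probe sets passed, against 15 in the main fit. Ltbp2 did not pass when 1 array at a time was left out. Ltbp1 and Ltbp4 differed by 0.29 and -0.099, with overlapping arrays. Ltbp1 differed by 0.12 without WKY replicate 3, and the sign of Ltbp4 turned without SHR replicate 1, at 0.023.

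Genes of the ADAMTS and ADAMTSL family, several of which act on fibrillin microfibrils, differed in both directions, with 0 of 6 tested genes passing. Adamtsl4, which binds fibrillin-1, lay at 5.54, 5.67 and 5.77 on SHR replicates 1 to 3, against 6.25, 6.16 and 6.27 on WKY replicates 1 to 3. Every SHR array was below every WKY array, and the difference of -0.57 ± 0.14 (SE; limma adjusted p = 0.496) held between -0.62 and -0.51 without any 1 array. Adamts10, a protease of microfibrils, differed by -0.50 and Adamtsl3 by 0.56, each with strains that did not overlap and neither passing (limma adjusted p = 0.765 and 0.852). Without SHR replicate 3 Adamtsl3 differed by 0.37.

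Among 10 further cross-linking genes and matrix partners of lysyl oxidase, Postn and Fn1 had the smallest p. Postn, whose protein periostin helps to activate lysyl oxidase, lay at 9.97, 10.23 and 10.29 on SHR replicates 1 to 3, against 8.94, 9.07 and 8.10 on WKY replicates 1 to 3. The strains did not overlap (limma adjusted p = 0.261), and Postn passed when arrays were weighted (1.25; limma adjusted p = 0.0338) and when SHR replicate 1 and WKY replicate 3 were both left out (1.26; limma adjusted p = 0.0490). In these fits 65 and 115 of all probe sets passed, against 15 in the main fit, and the weights come from these same data. Postn did not pass when 1 array at a time was left out. Fn1, fibronectin, on which fibrillin assembles, lay at 10.90, 10.71 and 11.04 on SHR replicates 1 to 3, against 10.15, 10.22 and 9.52 on WKY replicates 1 to 3 (limma adjusted p = 0.464). Slc2a10, a sugar transporter whose loss causes arterial tortuosity in humans, differed by 0.50 with overlapping arrays, and by 0.32 without WKY replicate 3. The enzymes Loxl2, Loxl3 and Loxl4 differed by 0.075, 0.30 and -0.010, and the copper transporter Atp7a, which loads lysyl oxidase with its metal, by 0.0021. Loxl2 ranged from -0.36 without SHR replicate 1 to 0.43 without SHR replicate 2, so single arrays set its direction. The signs of Loxl4 and Atp7a also turned without 1 array, and Loxl3 differed by 0.16 without WKY replicate 3.

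Of 8 tested elastin receptor and integrin genes, 3 had SHR arrays wholly above the WKY arrays, beside 6.48% of all tested probe sets. These genes were listed with earlier results of these data known. Itga5, a chain of the fibronectin receptor, lay at 7.18, 7.26 and 7.13 on SHR replicates 1 to 3, against 6.64, 6.69 and 6.52 on WKY replicates 1 to 3 (limma adjusted p = 0.474). Glb1, whose splice form binds elastin peptides, and Ctsa, its partner, differed by 1.01 and 0.23. Neu1, the only 1 of the 8 genes below 0, differed by -0.16 with overlapping arrays, and by -0.076 without WKY replicate 2. Among 15 elastases and their inhibitors, Timp1, Ctsk and Cst3 had the smallest p and limma adjusted p of 0.277, 0.398 and 0.882. Ctsk, an elastin-degrading cathepsin, lay at 7.38, 7.30 and 7.17 on SHR replicates 1 to 3, against 6.37, 6.43 and 5.54 on WKY replicates 1 to 3. Timp1, which inhibits metalloproteinases, and Cst3, which inhibits cathepsins, were also separated by strain, with differences of 1.03 and 0.49.

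TGF-beta is an inducer of elastin and lysyl oxidase transcription in smooth muscle cells. Of 5 tested genes of its ligands, receptors and signalling, 4 had SHR arrays wholly above the WKY arrays, as had 6.48% of all tested probe sets. The remaining gene of the group, Smad3, differed by -0.11 with overlapping arrays. This group too was listed with earlier results of these data known, so its share is description only. Tgfb1 lay at 6.65, 6.99 and 7.10 on SHR replicates 1 to 3, against 6.26, 6.18 and 6.07 on WKY replicates 1 to 3, a difference of 0.74 ± 0.17 (SE; limma adjusted p = 0.436). Tgfbr1, a receptor chain, and Tgfb2 differed by 0.90 and 0.33 (limma adjusted p = 0.636 and 0.923). In Tgfbr1, Tgfb2, Ctsk, Timp1, Postn, Fn1, Glb1, Cst3 and Ctsa the lowest level was that of WKY replicate 3, the array with the lowest weight, and without it Tgfbr1 differed by 0.61 and Tgfb2 by 0.15. Without that array Glb1 differed by 0.63, Cst3 by 0.31 and Ctsa by 0.11, and Ctsk, Timp1, Postn and Fn1 by 0.70 to 1.16. WKY replicate 3 was also the lowest array in Tgfb1, Itga5, Fbln7 and Adamtsl3. Without it these differed by 0.69, 0.52, 0.35 and 0.49. So it was in Vcan, Ltbp1, Slc2a10 and Loxl3, whose values without that array are given above.

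**Figure D4:**
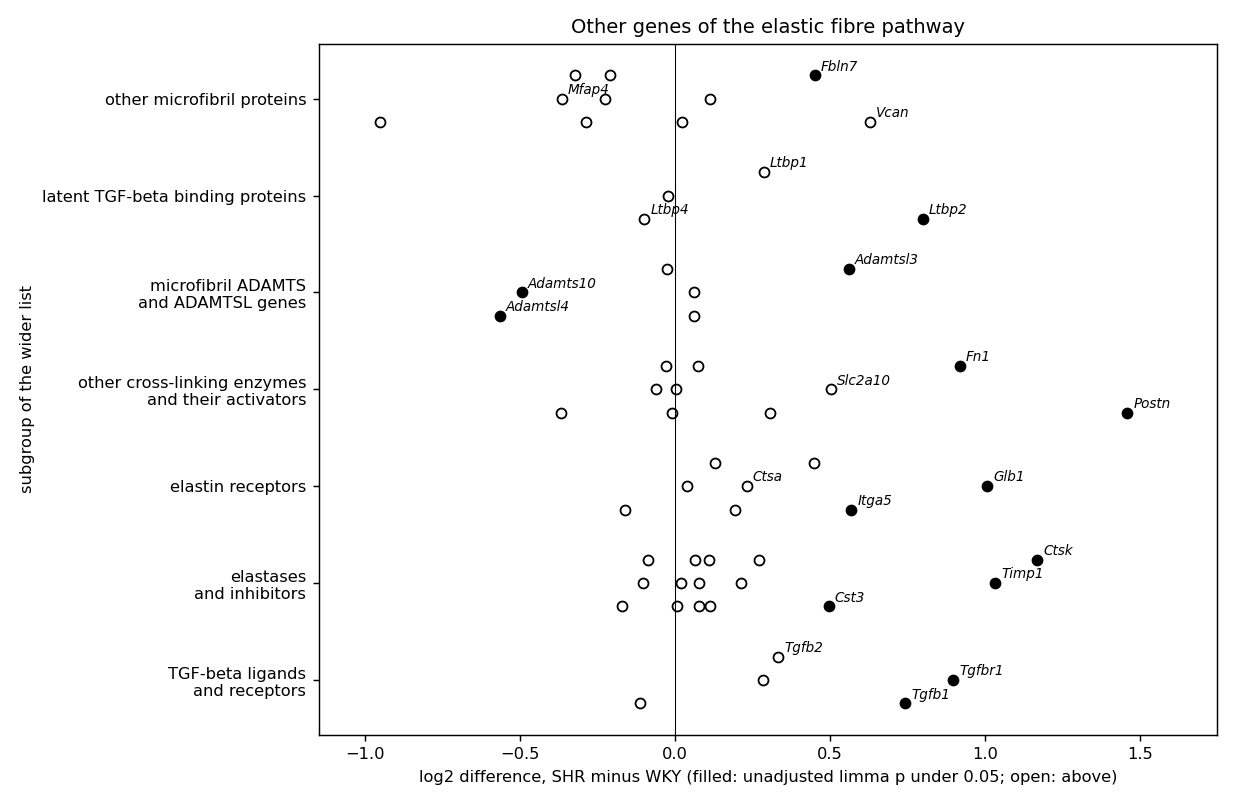
Fitted log2 difference, SHR minus WKY, of the 58 tested genes of the wider list by subgroup, 1 point a gene, with the genes of the naming rule labelled. Filled points have an unadjusted limma p under 0.05 (12 higher and 2 lower in SHR), and none passed after adjustment.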

How the data were processed

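The values are log2 levels per probe set that the authors deposited, and the submitters' processing notes name RMA and Affymetrix Expression Console 1.2.1. RMA's definition and the range of the values give the log2 base. The annotation version behind them is not given in the sources used here, nor is the genome build. The table carries no detection or saturation calls, and for arrays it is their number that limits the precision.

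Only the 18511 of 28879 probe sets with a single gene symbol in the platform annotation were named, and 18394 of these were matched to RefSeq (assembly GRCr8) for current symbols. The 21659 probe sets whose mean reached the 25th percentile (1.17) were tested with limma 3.58.1 under R 4.3.3, using lmFit and eBayes with strain alone in the model. P-values are two-sided, with Benjamini-Hochberg adjustment across all tested probe sets, and passing means an adjusted p under 0.05. A gene with several probe sets was represented by the brightest. The fit was tested on simulated data with known changes.

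The members, lists and naming rule were chosen with earlier results of these data known. The rule names every member, the 3 genes of smallest unadjusted p in each subgroup of the wider list, and the 3 protein-coding genes nearest to Eln and to Lox. Thsd4, listed under 2 names, was counted once. Alternatives were a replicate block, other filters, normalizations and variance models, array weights, fewer arrays, and marker means as covariates.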

Additional observations from a re-analysis of the deposited data

How the results depend on the processing

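The count of 0 passing elastic fibre genes among 8 held in all 16 alternatives run, with the smallest limma adjusted p at 0.0735 (Mfap5 without both SHR replicate 1 and WKY replicate 3). The replicate block, both filter settings and the intensity trend leave a fitted difference as it was by construction, so they bear on p-values only. Under the other 12 alternatives 92 of 96 recomputed differences of single genes kept their direction. The exceptions were Emilin1 and Lox, which ranged from -0.0038 to 0.23 and from -0.45 to 0.17 without 1 array at a time, and Emilin1 with the fibroblast covariate (-0.011). The median difference of the 8 genes ranged from -0.21 to 0.0041 without 1 array, and was -0.15 after a further quantile normalization and -0.047 with arrays centred on their medians. Over all probe sets 15 passed, against 65 with array weights, 115 without both SHR replicate 1 and WKY replicate 3, 2 to 5 without 1 array at a time, and 1202 at an unadjusted p under 0.05. Of the wider list 1 gene passed with array weights, 2 without both arrays, and 14 at an unadjusted p. Whether the replicate numbers pair the arrays is not settled by these values: deviations of same-numbered arrays correlated at 0.35, -0.079 and 0.23. SHR replicates 1 and 3 correlated best with the WKY array of the same number, and SHR replicate 2 with WKY replicate 3 (0.17). With a replicate block 3 probe sets passed in all, and 0 of the 8 genes and 0 of the wider list. Averaging several probe sets per gene gave no further value, since each of the 8 genes had 1. Leaving out an array also leaves fewer samples in the fit; other causes of these changes were not tested. No detection calls exist, and 3 arrays per strain could not resolve differences inside the intervals given.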
